A study of Mus musculus with 34 samples.

Results

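The circadian clock reaches its downstream programmes through genes of which 8 were followed here in mouse liver: the PAR bZIP activators Dbp, Tef and Hlf, their competitor Nfil3, the ubiquitin protease Usp2, the transcriptional repressors Bhlhe40 and Bhlhe41, and the nuclear receptor Rora. They were taken by name from the array's own gene column, which gave 11 probes for the 8 genes among 55681 probes. Of the 8, 7 passed the background filter and were tested with 15976 genes in all. Bhlhe41 did not pass.

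The arrays held total liver RNA from 34 male C57Bl/6J mice aged 14 weeks, 1 array per mouse, killed at zeitgeber time 14, which is 2 hours into the dark phase of a 12 h light and 12 h dark cycle. The lines were WT (wild-type), KO (Ppara deleted in the whole body), LKO (Ppara deleted in liver) and LWT (the liver wild-type mice that serve as controls of LKO). Each line received fenofibrate at 100 mg/kg/day or the vehicle, 3% gum arabic in water, by gavage on 10 consecutive days. Vehicle groups held 4 WT, 4 LWT, 4 LKO and 3 KO mice, and fenofibrate groups held 4 WT, 5 LWT, 5 LKO and 5 KO mice. The deleted part of Ppara and the Cre driver are not given in the sources used here.

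The clock is a feedback loop in which CLOCK and BMAL1 (the product of Arntl) activate genes through E-box sequences, and PER and CRY proteins later repress them. DBP, TEF and HLF are made under that loop, bind D-box sequences and carry the rhythm on to genes of drug, bile acid and lipid metabolism. NFIL3 occupies the same D-boxes and represses, BHLHE40 and BHLHE41 repress at E-boxes, RORA activates Arntl through ROR elements that REV-ERB receptors also bind, and USP2 removes ubiquitin from clock proteins among other substrates. PPARA is the fatty acid sensing nuclear receptor that fenofibrate activates. With 1 time of day sampled, neither phase nor amplitude can be read from these data.

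Promoter sequence is shown for Tef, Nfil3 and Usp2, 3 of the genes whose levels moved with the drug, so that the clock elements near their start sites can be seen. Windows are the 250 bases before the annotated start, 5′ to 3′ on the gene's strand, from RefSeq on GRCm38.p6. Capitals mark an E-box (CACGTG) or the ROR element core (AGGTCA, on the opposite strand in Nfil3).
Tef, upstream start, chr15:81802423-81802672, plus strand: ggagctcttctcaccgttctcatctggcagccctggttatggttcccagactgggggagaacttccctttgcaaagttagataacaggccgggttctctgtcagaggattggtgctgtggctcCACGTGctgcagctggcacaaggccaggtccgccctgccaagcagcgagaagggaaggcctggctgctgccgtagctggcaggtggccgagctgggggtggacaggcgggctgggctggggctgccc
Tef, downstream start, chr15:81811164-81811413, plus strand: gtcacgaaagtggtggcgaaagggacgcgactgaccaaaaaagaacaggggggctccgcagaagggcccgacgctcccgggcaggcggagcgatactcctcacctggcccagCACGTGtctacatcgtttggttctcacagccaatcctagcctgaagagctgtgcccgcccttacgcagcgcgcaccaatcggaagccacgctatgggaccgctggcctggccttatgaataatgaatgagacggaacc
Nfil3, chr13:52981040-52981289, minus strand: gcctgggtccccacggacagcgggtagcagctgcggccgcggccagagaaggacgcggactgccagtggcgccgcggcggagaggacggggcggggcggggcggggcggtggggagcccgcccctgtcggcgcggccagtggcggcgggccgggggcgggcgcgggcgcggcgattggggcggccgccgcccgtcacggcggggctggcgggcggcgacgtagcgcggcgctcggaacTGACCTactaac
Usp2, chr9:44084670-44084919, plus strand: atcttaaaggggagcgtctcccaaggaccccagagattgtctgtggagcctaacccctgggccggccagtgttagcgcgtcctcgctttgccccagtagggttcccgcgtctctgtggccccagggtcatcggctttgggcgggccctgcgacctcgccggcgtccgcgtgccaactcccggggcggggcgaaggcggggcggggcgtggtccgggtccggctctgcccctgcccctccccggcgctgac
Both Tef windows hold an E-box, ending 121 and 132 bases before their start sites, and the Nfil3 window holds the ROR core 6 bases before its start.

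In all, 8 windows were found for 7 of the 8 genes, with none for Bhlhe40. On both strands, E-box letters were in 6.02% of 32851 RefSeq windows of the same length and AGGTCA in 14%. The D-box letters TTATGTAA and TTACGTAA were in 0.819% and 0.113% of windows and in none of the 8. Besides Tef, the Bhlhe41 window held an E-box, 147 bases before its start. The Dbp, Hlf, Rora and Usp2 windows held none of the 4 motifs searched. A match describes letters only.

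On mm9, the build named in the file headers, the probes used lay at chr7:52965461-52965520 (Dbp), chr15:81657221-81657280 (Tef), chr11:90200696-90200755 (Hlf), chr13:53062578-53062637 (Nfil3), chr9:43903649-43903708 (Usp2), chr6:108616309-108616368 (Bhlhe40) and chr9:69226774-69226833 (Rora). Hlf and Nfil3 were read on the minus strand and the others on the plus strand. The Tef probe lay 3.98 Mb from the Ppara probe on chromosome 15. Exon or UTR position was not analysed here.

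Levels are log2 of the array's processed signal minus the 75th percentile of that array, so a level can be compared between mice for 1 gene but not between genes. Between 50.6% and 63.2% of probes were well above background per array, and no member probe was saturated. The 34 arrays sat on 5 slides that do not match the groups but are not balanced over treatment. Of the WT and LWT arrays, those on slide 4 were all vehicle and those on slide 5 all fenofibrate. The 2 treatments of WT shared slide 3 only. The Ppara probe read 7.02 ± 0.20 (SD, n = 4) in WT, 7.03 ± 0.23 (n = 4) in LWT, 6.11 ± 0.09 (n = 4) in LKO and 5.34 ± 0.27 (n = 3) in KO on vehicle on the same scale. Whether this probe lies in the deleted part is not known here. Of 12 PPARA target genes listed as anchors, 11 were called higher with fenofibrate in WT, 8 in LWT and none in LKO or KO. Uncalled changes in LKO reached 3.58 for Cyp4a14 (adjusted p = 0.468) and 1.82 for Cyp4a10 (adjusted p = 0.694). In bulk liver, fewer cells of a type and less RNA per cell cannot be told apart.

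A moderated F test (limma) over the 8 groups called 4 of the 7 members, Hlf (adjusted p = 5.33e-08), Nfil3 (7.37e-08), Usp2 (9.62e-08) and Bhlhe40 (3.47e-06), a share close to the 60.6% of all genes called. Tef (adjusted p = 0.0515), Dbp (0.515) and Rora (0.747) did not pass. The 4 called genes followed 2 layouts. Usp2, Nfil3 and Bhlhe40 were lowest in the fenofibrate-treated mice of WT and LWT, whereas Hlf was lowest in KO mice on either treatment.

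**Figure D1:**
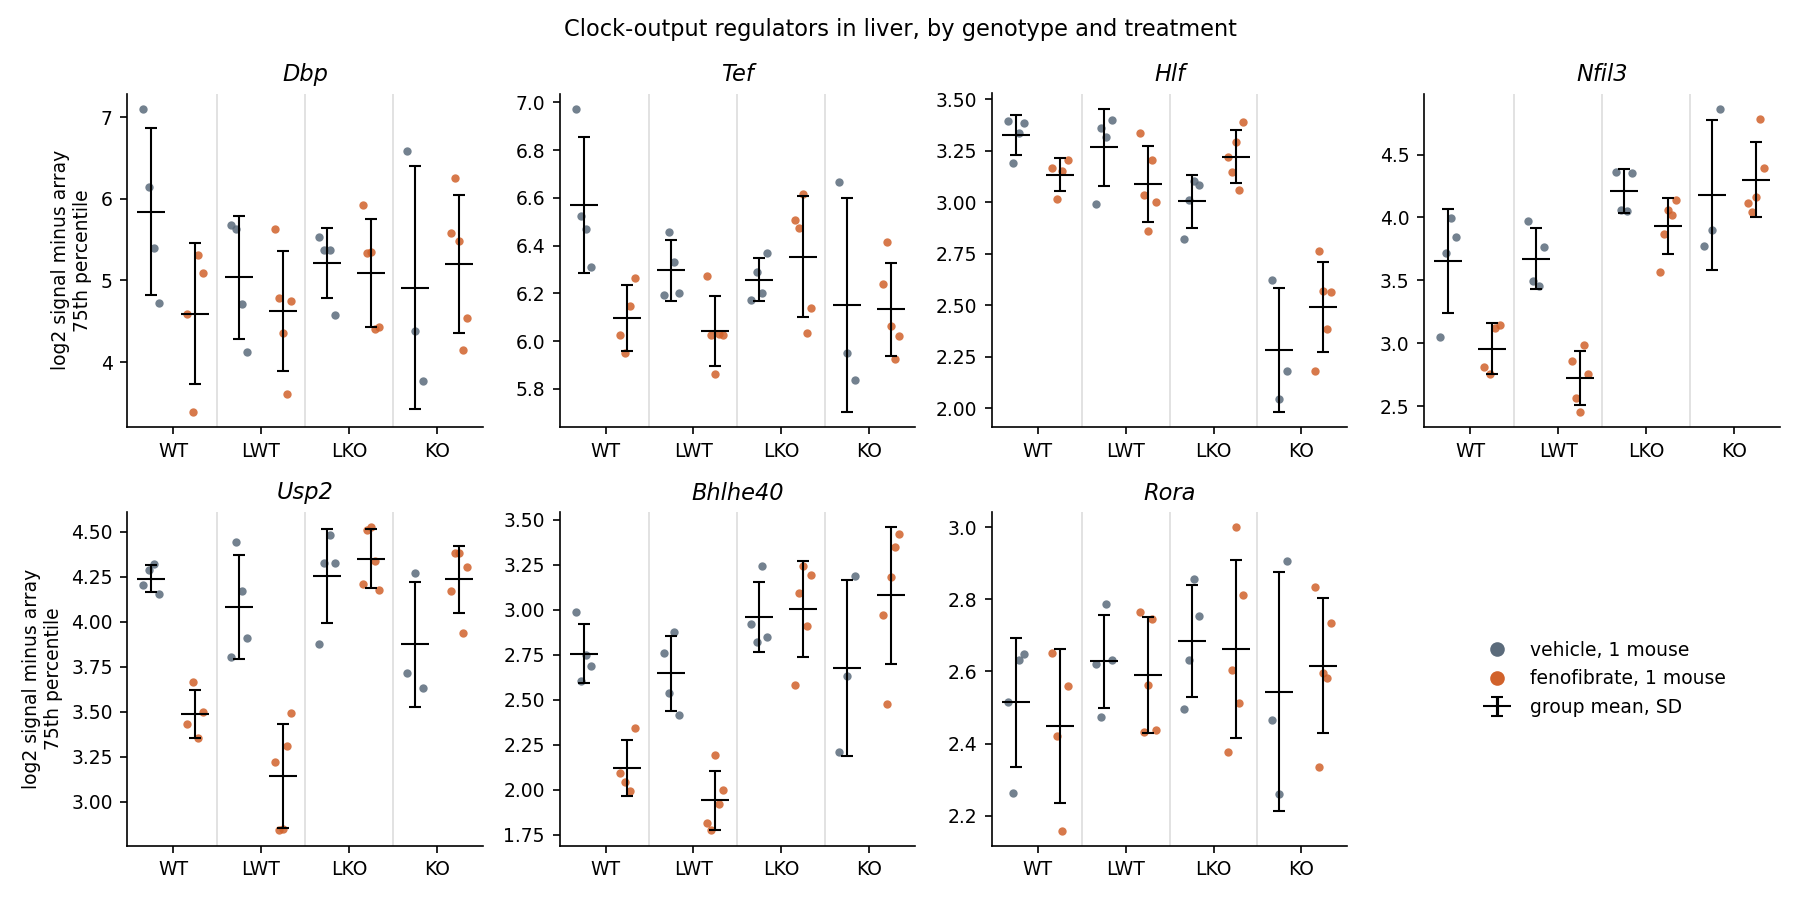
Levels of the 7 tested members in each mouse (log2 signal minus the array's 75th percentile, a separate scale per gene), by line, with vehicle in grey and fenofibrate in orange. Points are mice, placed by replicate number, and bars are group mean and SD. Usp2 in WT spans 4.16 to 4.32 on vehicle and 3.35 to 3.67 on fenofibrate, and all 8 KO values of Hlf lie at or below 2.76.

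Usp2 fell with fenofibrate in both lines that carry hepatic Ppara and did not pass the test in either knockout. In WT its levels were 4.20, 4.29, 4.32 and 4.16 on vehicle and 3.43, 3.67, 3.35 and 3.50 on fenofibrate. In LWT they were 3.80, 4.44, 4.17 and 3.91 on vehicle and 3.22, 2.84, 2.85, 3.31 and 3.50 on fenofibrate. Every treated WT or LWT mouse was below every vehicle mouse of its line. The fall was 1.68-fold in WT (log2 change -0.75, SE 0.16, adjusted p = 8.16e-04) and 1.91-fold in LWT (-0.94, SE 0.15, adjusted p = 3.51e-05).

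In LKO, Usp2 read 3.88, 4.33, 4.48 and 4.33 on vehicle and 4.21, 4.51, 4.53, 4.34 and 4.17 on fenofibrate. In KO it read 3.72, 4.27 and 3.63 on vehicle and 4.17, 4.38, 4.38, 3.94 and 4.31 on fenofibrate. The treatments overlapped in both knockouts, with changes of 0.10 (95% interval -0.21 to 0.41, adjusted p = 0.986) in LKO and 0.36 (0.03 to 0.70, adjusted p = 0.39) in KO. Usp2 was the member whose drug effect differed between control and knockout in both designs, by -1.04 (SE 0.21, adjusted p = 0.00189) for LWT minus LKO and by -1.11 (SE 0.23, adjusted p = 0.00127) for WT minus KO.

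Nfil3, the D-box repressor, fell in the same lines. WT levels were 3.05, 3.72, 4.00 and 3.85 on vehicle and 2.81, 2.76, 3.12 and 3.14 on fenofibrate. LWT levels were 3.97, 3.49, 3.46 and 3.76 on vehicle and 2.86, 2.57, 2.45, 2.99 and 2.76 on fenofibrate. The LWT groups did not overlap, and in WT the vehicle mouse at 3.05 lay within the treated range. The change was -0.70 (SE 0.21, adjusted p = 0.0155) in WT and -0.95 (SE 0.20, adjusted p = 9.01e-04) in LWT. The WT call was lost without WT vehicle replicate 3 (adjusted p = 0.0648) or without either of the WT fenofibrate replicates 1 and 2 (0.0506 and 0.0531).

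In the knockouts Nfil3 stood higher than in treated controls. LKO levels were 4.37, 4.06, 4.06 and 4.35 on vehicle and 3.57, 3.87, 4.06, 4.02 and 4.14 on fenofibrate. KO levels were 3.78, 3.90 and 4.87 on vehicle and 4.12, 4.04, 4.16, 4.78 and 4.40 on fenofibrate. Fenofibrate changed neither past the test (-0.28, adjusted p = 0.937 in LKO, 0.12, adjusted p = 0.866 in KO). The difference in drug effect was -0.67 (adjusted p = 0.16) for LWT minus LKO and -0.82 (adjusted p = 0.0771) for WT minus KO, neither past the threshold, and -0.74 (SE 0.20, adjusted p = 0.00924) when the control lines and the knockouts were each averaged.

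Bhlhe40, which encodes the E-box repressor DEC1, fell as well. Its WT levels were 2.99, 2.60, 2.75 and 2.69 on vehicle and 2.09, 2.04, 1.99 and 2.35 on fenofibrate. In LWT they were 2.76, 2.54, 2.88 and 2.42 on vehicle and 1.82, 1.77, 2.19, 1.92 and 2.00 on fenofibrate. The treatments did not overlap in either line, and the falls were 1.56-fold in WT (-0.64, SE 0.18, adjusted p = 0.0124) and 1.63-fold in LWT (-0.71, SE 0.18, adjusted p = 0.00448).

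LKO levels of Bhlhe40 were 2.92, 2.82, 3.24 and 2.85 on vehicle and 2.58, 3.10, 3.24, 2.91 and 3.19 on fenofibrate. KO levels were 2.21, 2.63 and 3.19 on vehicle and 2.97, 2.48, 3.18, 3.35 and 3.42 on fenofibrate. These overlapped, with changes of 0.05 (95% interval -0.31 to 0.40, adjusted p = 0.992) and 0.40 (0.02 to 0.79, adjusted p = 0.407). The drug effect differed by -1.04 (SE 0.27, adjusted p = 0.00895) for WT minus KO, and by -0.75 (SE 0.25, adjusted p = 0.0635) for LWT minus LKO, which did not pass. With only the WT and KO arrays in the fit the WT minus KO call was lost (adjusted p = 0.0558), and with only the LWT and LKO arrays the other was made (adjusted p = 0.0224).

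Of the 7 members, fenofibrate thus called 4 in WT, all lower, against 21.3% of all genes, and 3 in LWT, all lower, against 17.9%. It called none in LKO or KO, where 0% and 0.0125% of all genes were called (0 and 2 genes, with 923 genes at an unadjusted p under 0.05 in LKO). The median change of the 7 was -0.64 in WT, -0.41 in LWT, 0.05 in LKO and 0.21 in KO, beside medians of all genes between 0.00 and 0.02 in size. For the difference in drug effect, 1 member was called for LWT minus LKO (background 6.73%) and 2 for WT minus KO (11%). Without KO vehicle replicate 1 these counts were 2 and 5. Over all alternative fits, 795 to 1545 of all genes were called for LWT minus LKO and 1026 to 2290 for WT minus KO. The 2 control lines did not differ in drug effect for any member or any gene (0 genes by limma, 0%, with 681 genes at an unadjusted p under 0.05).

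**Figure D2:**
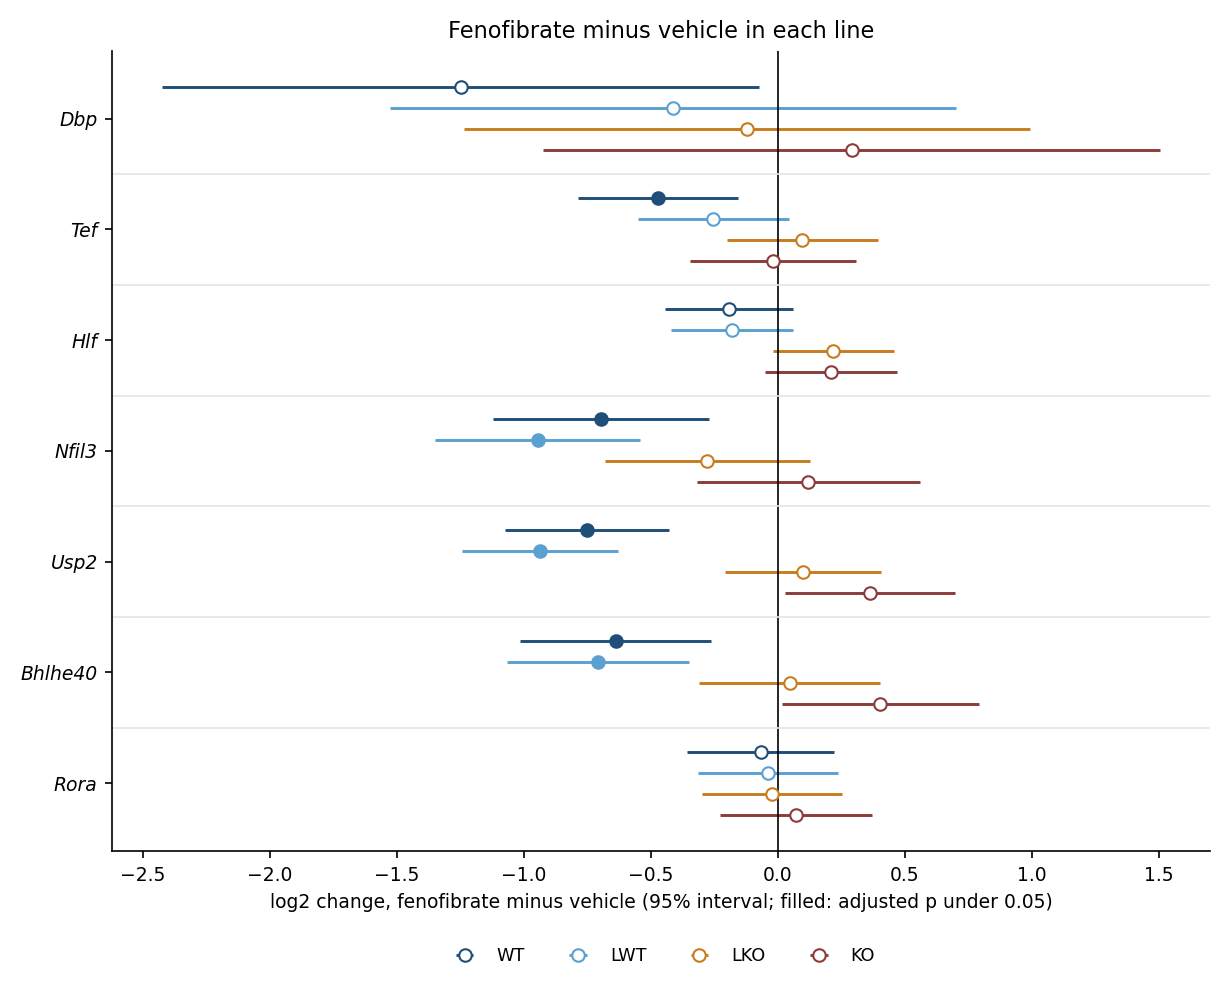
Change with fenofibrate for each member (log2, fenofibrate minus vehicle) in WT, LWT, LKO and KO, with 95% intervals from limma. Filled points have an adjusted p under 0.05. Usp2, Nfil3 and Bhlhe40 are filled in WT and LWT, Tef in WT, and none in LKO or KO.

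Averaged over WT and LWT, the drug lowered Usp2 by 0.85 (SE 0.11, adjusted p = 4.73e-07), Nfil3 by 0.82 (SE 0.14, adjusted p = 4.40e-05), Bhlhe40 by 0.67 (SE 0.13, adjusted p = 1.18e-04) and Tef by 0.36 (SE 0.11, adjusted p = 0.00847) on the log2 scale. That is 4 of 7, all lower, against 33.5% of all genes. Averaged over LKO and KO none was called, against 0.0313%. The difference between these averages called 4 members, against 20.3%: Usp2 (-1.08, adjusted p = 7.39e-06), Bhlhe40 (-0.90, adjusted p = 5.50e-04), Nfil3 (given above) and Hlf (-0.40, adjusted p = 0.018). Of hepatocyte markers, 4 of 10 fell and none rose in the WT and LWT average, a share near the 33.5% of all genes. Their mean level was 9.05 to 9.20 in WT on vehicle and 8.90 to 9.07 on fenofibrate. In LWT it was 9.09 to 9.37 and 8.91 to 9.21, so the treatments overlapped in both lines. The part of these markers in the members' falls was not tested.

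The slides gave the same directions for these 3 genes. On the slides that held both treatments of a line, the within-slide difference was -0.85 for Usp2, -1.02 for Nfil3 and -0.53 for Bhlhe40 in WT (1 slide). In LWT (2 slides) it was -0.86 and -0.76 for Usp2, -0.47 and -1.31 for Nfil3, and -0.96 and -0.76 for Bhlhe40. With slide as a block in the fit, the averaged falls were -0.85 (adjusted p = 3.86e-06), -0.86 (6.36e-05) and -0.71 (6.36e-04).

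Among the PAR bZIP activators, Tef was the member called in 1 control line. WT levels were 6.97, 6.53, 6.47 and 6.31 on vehicle and 6.03, 5.95, 6.15 and 6.27 on fenofibrate, without overlap. The change was -0.47 (SE 0.15, adjusted p = 0.0263). With slide as a block it was -0.32 (adjusted p = 0.141), with only the WT arrays the adjusted p was 0.0539, and the averaged WT and LWT fall was -0.27 (adjusted p = 0.0629) with the slide block, so both calls were lost there. Leaving out WT vehicle replicate 1 gave -0.34 (adjusted p = 0.143), and leaving out WT fenofibrate replicate 1 or 2 gave adjusted p-values of 0.07 and 0.081.

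In LWT, Tef read 6.19, 6.46, 6.33 and 6.20 on vehicle and 6.27, 6.02, 5.86, 6.03 and 6.03 on fenofibrate, which overlapped (-0.25, adjusted p = 0.252). In LKO it read 6.17, 6.29, 6.20 and 6.37 on vehicle and 6.51, 6.47, 6.62, 6.04 and 6.14 on fenofibrate. In KO it read 6.67, 5.95 and 5.84 on vehicle and 6.24, 6.42, 6.06, 5.93 and 6.02 on fenofibrate. The treatments overlapped in both knockouts, and the changes were 0.10 (adjusted p = 0.986) in LKO and -0.02 (0.977) in KO. The difference in drug effect between the averaged controls and knockouts was -0.40 (adjusted p = 0.0587), not past the threshold. It passed without KO vehicle replicate 1 (-0.53, adjusted p = 0.00485), without any of 6 other mice (adjusted p = 0.0351 to 0.0499), and with normexp, quantile normalization, the authors' value table or trended variances (0.0165 to 0.0497).

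Hlf, the third PAR bZIP gene, was set apart by genotype. WT levels were 3.39, 3.19, 3.34 and 3.39 on vehicle and 3.17, 3.02, 3.15 and 3.21 on fenofibrate. KO levels were 2.62, 2.04 and 2.18 on vehicle and 2.18, 2.76, 2.57, 2.39 and 2.57 on fenofibrate. Every KO mouse was below every WT mouse at either treatment. Hlf was 2.06-fold lower in KO than in WT on vehicle (-1.04, SE 0.13, adjusted p = 6.90e-07) and 1.56-fold lower on fenofibrate (-0.64, SE 0.12, adjusted p = 4.70e-05).

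In the liver knockout no difference in Hlf passed the test. LWT levels of Hlf were 2.99, 3.36, 3.32 and 3.40 on vehicle and 3.34, 3.03, 2.86, 3.21 and 3.00 on fenofibrate. LKO levels were 2.82, 3.01, 3.10 and 3.09 on vehicle and 3.22, 3.15, 3.29, 3.06 and 3.39 on fenofibrate. The groups overlapped, with LKO minus LWT at -0.26 (95% interval -0.52 to -0.01, adjusted p = 0.267) on vehicle and 0.13 (-0.09 to 0.36, adjusted p = 0.377) on fenofibrate. The difference between the whole-body and the liver knockout effect, a comparison added after the data were seen, was -0.78 (SE 0.18, adjusted p = 0.00551) on vehicle and -0.78 (SE 0.16, adjusted p = 0.00132) on fenofibrate. No other member was called there, against 8.31% and 12.2% of all genes.

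The drug changes of Hlf were -0.19 in WT, -0.18 in LWT, 0.22 in LKO and 0.21 in KO, none past the test (adjusted p = 0.298, 0.322, 0.891 and 0.527). The signs were opposite in controls and knockouts, which is the difference of -0.40 given above. With the replicate number as a block that difference was -0.37 (adjusted p = 0.143).

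Dbp, the best known clock output gene of this family, varied widely between mice of a group and passed no test in any of the 16 comparisons. WT levels were 7.10, 6.15, 5.39 and 4.73 on vehicle and 4.59, 3.39, 5.31 and 5.09 on fenofibrate. LWT levels were 5.67, 5.64, 4.72 and 4.12 on vehicle and 5.63, 4.78, 4.35, 3.61 and 4.74 on fenofibrate. All groups overlapped in range. Part of this spread followed the replicate number. In most groups Dbp was lower in replicate 4 than in replicate 1, as in WT on vehicle (7.10 to 4.73). In WT on fenofibrate it was higher (4.59 to 5.09). The main fit does not include the replicate number.

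The knockouts varied too. LKO levels of Dbp were 5.53, 5.37, 5.37 and 4.58 on vehicle and 5.93, 5.34, 5.35, 4.41 and 4.43 on fenofibrate. KO levels were 6.59, 4.38 and 3.77 on vehicle and 5.58, 6.26, 5.48, 4.15 and 4.55 on fenofibrate. The drug changes were -1.25 in WT (95% interval -2.42 to -0.07, adjusted p = 0.127), -0.41 in LWT (-1.53 to 0.70), -0.12 in LKO (-1.24 to 0.99) and 0.29 in KO (-0.92 to 1.50). Each of these intervals includes a fall as large as that called for Usp2 in WT (-0.75), so such a fall in Dbp is not excluded in any line. The second Dbp probe gave -1.32 in WT (adjusted p = 0.129 over 31058 probes), close to the value of the first.

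Rora passed no test in any comparison. Group means ran from 2.45 ± 0.21 (SD, n = 4) in WT on fenofibrate to 2.69 ± 0.16 (n = 4) in LKO on vehicle, and no neighbouring means differed by more than their pooled SD. Its drug changes lay between -0.07 (WT, 95% interval -0.36 to 0.22) and 0.07 (KO, -0.23 to 0.37). Its second probe (chr9:68511835-68511894) was above background on 31 of 34 arrays and gave no call in any comparison, but its values differed from the first. Its drug changes were 0.19 in WT, 0.48 in LWT, -0.47 in LKO and -0.30 in KO. The difference between the averaged controls and knockouts was 0.71 (SE 0.27, limma adjusted p = 0.0687 over 31058 probes), against -0.08 for the first probe.

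Bhlhe41, which encodes DEC2, was near the detection limit. Its brighter probe (chr6:145811275-145811334 on mm9, minus strand) was well above background on 14 of 34 arrays and the other on 2. Above-background counts for the brighter probe were 2 of 4 WT, 1 of 4 LWT, 2 of 4 LKO and 2 of 3 KO mice on vehicle, and 1 of 4, 1 of 5, 1 of 5 and 4 of 5 on fenofibrate. Processed signals ran from 7.8 to 24.3 intensity units over all arrays, and no group can be ordered against another on these values.

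**Figure D3:**
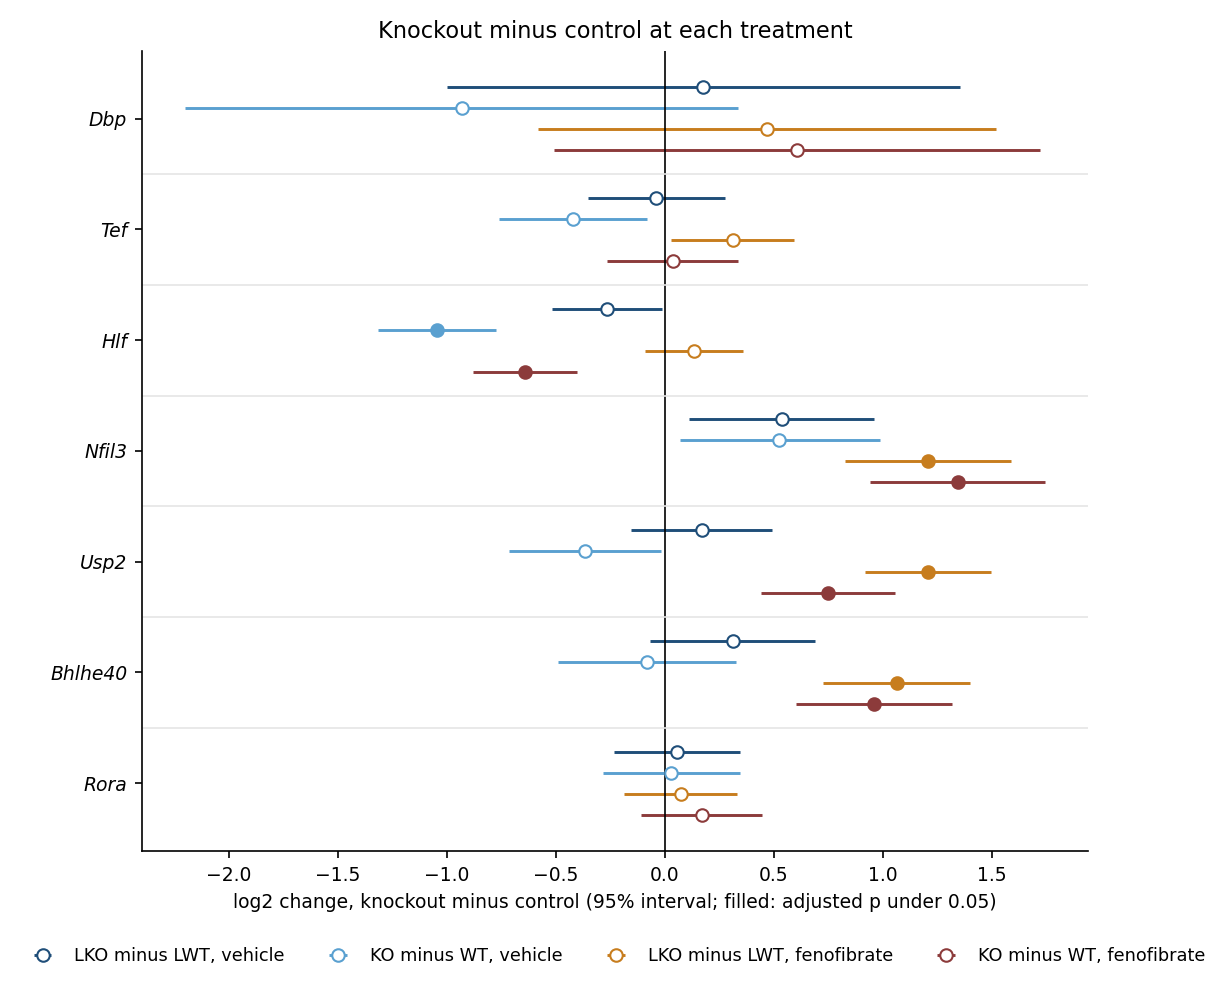
Knockout minus control for each member (log2) at each treatment, with 95% intervals from limma; filled points have an adjusted p under 0.05. Hlf is filled on the left for KO minus WT at both treatments, and Nfil3, Usp2 and Bhlhe40 are filled on the right for both knockouts on fenofibrate.

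On vehicle, losing Ppara in liver called none of the 7 members, against 6.12% of all genes, and losing it in the whole body called 1, Hlf, against 30.1%. Nfil3 came nearest in LKO: each LKO mouse on vehicle was above each LWT mouse, by 0.54 (SE 0.21, adjusted p = 0.147). In KO on vehicle Nfil3 was 0.53 higher (adjusted p = 0.0761) and the Tef difference was -0.42 (adjusted p = 0.0563). Same-numbered mice deviated together in the 3 vehicle genotype comparisons. Of these pairs, 3 of 4 shared a slide for LKO against LWT, 3 of 4 for WT against LWT and 1 of 3 for KO against WT. The part of the slide in this was not tested. With the replicate number as a block, the Tef and Nfil3 differences became calls in KO, at -0.51 (adjusted p = 0.00716) and 0.59 (adjusted p = 0.0193). Without KO vehicle replicate 3 the Nfil3 difference was 0.18 (adjusted p = 0.589) and that of Tef -0.26 (adjusted p = 0.318).

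The KO vehicle group had 3 mice, and its count moved with single mice. Without replicate 1, 4 members were called (Hlf, Tef, Nfil3 and Dbp, the last at -1.77, adjusted p = 0.0329). Without replicate 2, 3 were called (Hlf, Nfil3 and Usp2, the last at -0.57, adjusted p = 0.0197). Over all alternative fits of this comparison, 2050 to 5292 of all genes were called. Replicate 2 also stood apart in markers of Kupffer cells, the liver's macrophages, whose mean level was 4.61 there, 3.09 and 2.65 in replicates 1 and 3, and 2.32 to 2.91 in WT on vehicle. In KO against WT on vehicle, where 30.1% of all genes were called, 3 of 7 Kupffer markers were higher and none lower. Of 6 lymphocyte and neutrophil markers 3 were higher and 1 lower, of 6 endothelial markers 2 were higher and 2 lower, and of 10 hepatocyte markers 3 were higher and none lower. Of 6 stellate and 5 cholangiocyte markers 1 each was lower. Their part in the KO differences was not tested. Without that mouse Hlf was lower by 0.93 (adjusted p = 2.46e-05). Mean hepatocyte marker levels were 9.15 to 9.28 in KO and 9.05 to 9.20 in WT on vehicle.

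On fenofibrate, 3 of 7 members were called in LKO against LWT, all higher, against 36.5% of all genes, and 4 in KO against WT, against 43.2%. Both shares lie near those of all genes, so the counts say nothing particular of the members. Usp2 was 2.31-fold higher in LKO (SE 0.14 log2, adjusted p = 6.24e-08) and 1.68-fold higher in KO (SE 0.15, adjusted p = 1.67e-04). Nfil3 was 2.31-fold (adjusted p = 5.99e-06) and 2.54-fold higher (adjusted p = 2.06e-06), and Bhlhe40 2.09-fold (adjusted p = 6.42e-06) and 1.95-fold higher (adjusted p = 4.73e-05). For these 3 genes no treated knockout mouse overlapped its treated controls. The treated control mice here are those of the drug comparisons above, so the results share samples.

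Between the control lines themselves no member was called, on vehicle (0.92% of all genes called) or on fenofibrate (0.532%). The nearest was Usp2 on fenofibrate, 0.34 higher in WT than in LWT (SE 0.15, adjusted p = 0.445).

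Ordered by mean level, the 8 groups separated at few points. For Hlf the gap of 0.51 between KO on fenofibrate and LKO on vehicle exceeded the pooled SD of 0.19 and the ranges did not overlap, and no other neighbours differed by more than their SD. For Bhlhe40 the gap of 0.53 between WT on fenofibrate and LWT on vehicle exceeded the SD of 0.18, without overlap, and the steps from LWT to WT on fenofibrate (0.18) and from WT to LKO on vehicle (0.20) exceeded their SDs with overlapping ranges. For Usp2 the lowest means were LWT and WT on fenofibrate, then KO on vehicle, each step larger than its SD (0.34 and 0.39 against 0.24 and 0.24), with overlapping ranges. For Nfil3 the steps from LWT to WT on fenofibrate (0.23), from there to WT on vehicle (0.70), and from LWT on vehicle to LKO on fenofibrate (0.26) exceeded their SDs, all with overlapping ranges. For Dbp, Tef and Rora no neighbours differed by more than their pooled SD.

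The members also differed in how far mice of 1 group spread. The SD within groups was 0.85 for Dbp, larger than for 98.9% of the tested genes, beside a median over all genes of 0.21. It was 0.30 for Nfil3, 0.27 for Bhlhe40, 0.23 for Usp2, 0.22 for Tef, 0.20 for Rora and 0.17 for Hlf. Arntl, the clock gene encoding BMAL1, had an SD of 0.94, larger than 99.3% of genes.

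Dbp and Arntl mirrored each other among mice of the same group. Over the 34 deviations from group means Pearson's r was -0.972 and Spearman's rho -0.963 (permutation within groups, p = 1e-05, the smallest 100000 resamples can give; adjusted p = 0.00028). Without the 2 mice farthest in Dbp r was -0.967, with slide means also removed -0.966, and within the 4 slides of 6 or more arrays between -0.994 and -0.931. The sign was the same in all 8 groups. The permutation here and below exchanges mice freely within a group. In most groups, though, Dbp fell and Arntl rose from replicate 1 to replicate 4. In WT on vehicle these replicates deviated, in order, by 1.259, 0.306, -0.451 and -1.114 in Dbp. In Arntl they deviated by -1.499, -0.279, 0.518 and 1.261. Replicate number was not removed from any of these values, so the p does not account for that shared order. Arntl was chosen for this after the data were seen, as the tested gene most opposite to Dbp, and the p does not account for that choice. Arntl was called in none of the 16 comparisons.

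Tef followed Dbp in this respect and Usp2 did not. Dbp and Tef gave r = 0.809 and rho = 0.771 (permutation p = 4e-05, adjusted p = 0.000467), 0.771 without the 2 farthest mice, 0.75 with slides removed, 0.572 to 0.859 within slides, and the same sign in 7 of 8 groups. Tef and Arntl gave r = -0.79 and rho = -0.709 (adjusted permutation p = 0.000467). Usp2 and Arntl gave r = 0.005 and rho = 0.022 (permutation p = 0.983), and Usp2 and Dbp r = 0.016 and rho = -0.001 (permutation p = 0.943).

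**Figure D4:**
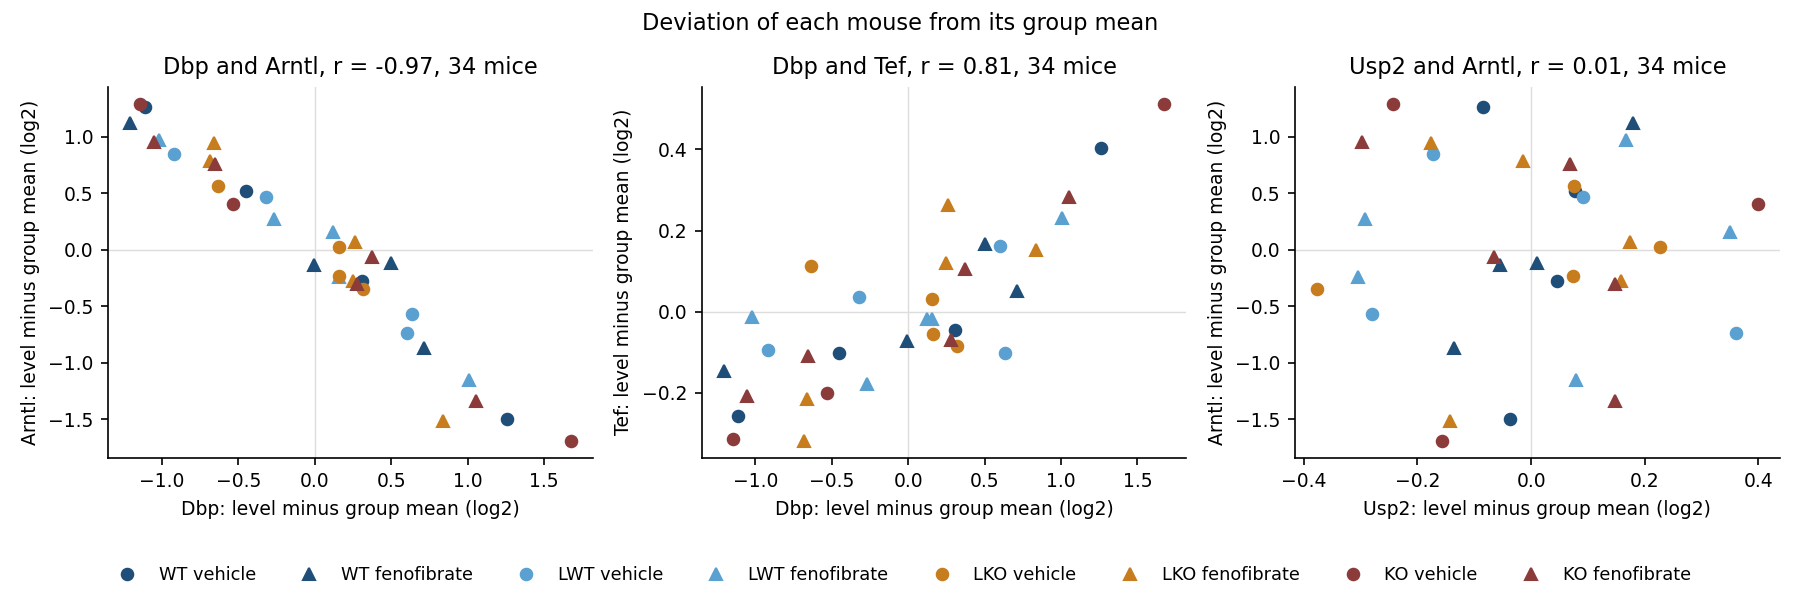
Deviation of each of the 34 mice from its group mean (log2) for Dbp against Arntl, Dbp against Tef and Usp2 against Arntl, coloured by line with circles for vehicle and triangles for fenofibrate. Dbp and Arntl fall along 1 descending line (r = -0.972), Dbp and Tef rise together (r = 0.809), and Usp2 against Arntl gives r = 0.005.

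Of 28 pairs examined (21 among the members and 7 with Arntl), 6 had an adjusted permutation p under 0.05 for r, 3 of them among member pairs. The others were Bhlhe40 with Rora (r = 0.589, rho = 0.525, adjusted p = 0.0312; 0.462 without the 2 farthest mice and 0.554 with slides removed), Tef with Hlf (r = 0.531, rho = 0.448, adjusted p = 0.049 for r and 0.112 for rho) and Nfil3 with Arntl (r = 0.573, rho = 0.461, adjusted p = 0.049 for r and 0.112 for rho). Within slides, Tef with Hlf ranged from -0.385 to 0.849, so it did not hold on every slide. Nfil3 and Usp2, which fell together under the drug, gave r = -0.262 and rho = -0.244 among mice of a group (adjusted permutation p = 0.382).

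Since Dbp varied with Arntl, the fit was repeated with each mouse's Arntl level as a covariate, an alternative added after the data were seen. The change of Dbp with fenofibrate was then -1.03 in WT (SE 0.14, adjusted p = 3.77e-06) and -0.92 averaged over WT and LWT (SE 0.10, adjusted p = 2.08e-08). The averaged controls minus knockouts difference for Dbp was -1.01 (adjusted p = 3.96e-06) and for Tef -0.42 (adjusted p = 0.00203). Usp2 stayed at -0.85, Nfil3 at -0.80 and Bhlhe40 at -0.66. In this fit, which leaves Arntl itself out, 5 of 7 members were called in WT beside 3896 genes in all. None was called in LKO or KO beside 0 and 7 genes. These values are changes at equal Arntl level, not changes in Dbp level. Arntl was picked for its likeness to Dbp within groups, and Tef varied with it as well (r = -0.79). The SEs and p-values for Dbp and Tef, and the counts that include them, do not account for that choice. They are given as a description.

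Across the same 34 deviations, and as a description with no test since mice share slides, the genes most like each member were Slc2a5 (r = 0.938) and Ngef (0.929) for Dbp, Per3 (0.903) and Nudcd3 (0.899) for Tef, and Bmp1 (0.815) and Cyp2d37-ps (0.735) for Hlf. For Nfil3 they were Abcg4 (0.771) and Pafah1b1 (0.766), for Usp2 Tsc22d3 (0.677) and Mef2b (0.675), for Bhlhe40 Gm10272 (0.822) and 3100002H09Rik (0.809), and for Rora Zfp212 (0.825) and Zmiz1 (0.739).

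The core clock genes around the members were read from a list of 20, of which 19 were tested (Npas2 was not). Fenofibrate called 3 in WT, against 21.3% of all genes, and 2 in LWT, against 17.9%, all lower, and none in LKO or KO. In the WT and LWT average 5 were called, all lower, against 33.5%, with a list median of -0.18 beside 0.00 for all genes. These shares are below those of all genes, so the counts do not set the list apart. Per1, a repressor of the loop, changed by -0.51 (adjusted p = 8.31e-06), Per2 by -0.40 (0.00502), and Btrc, a ubiquitin ligase subunit that acts on PER proteins, by -0.34 (0.0135). Averaged over LKO and KO none was called, with a list median of 0.02, and the drug effect on Per1 differed between the averages by -0.59 (adjusted p = 2.73e-04).

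**Figure D5:**
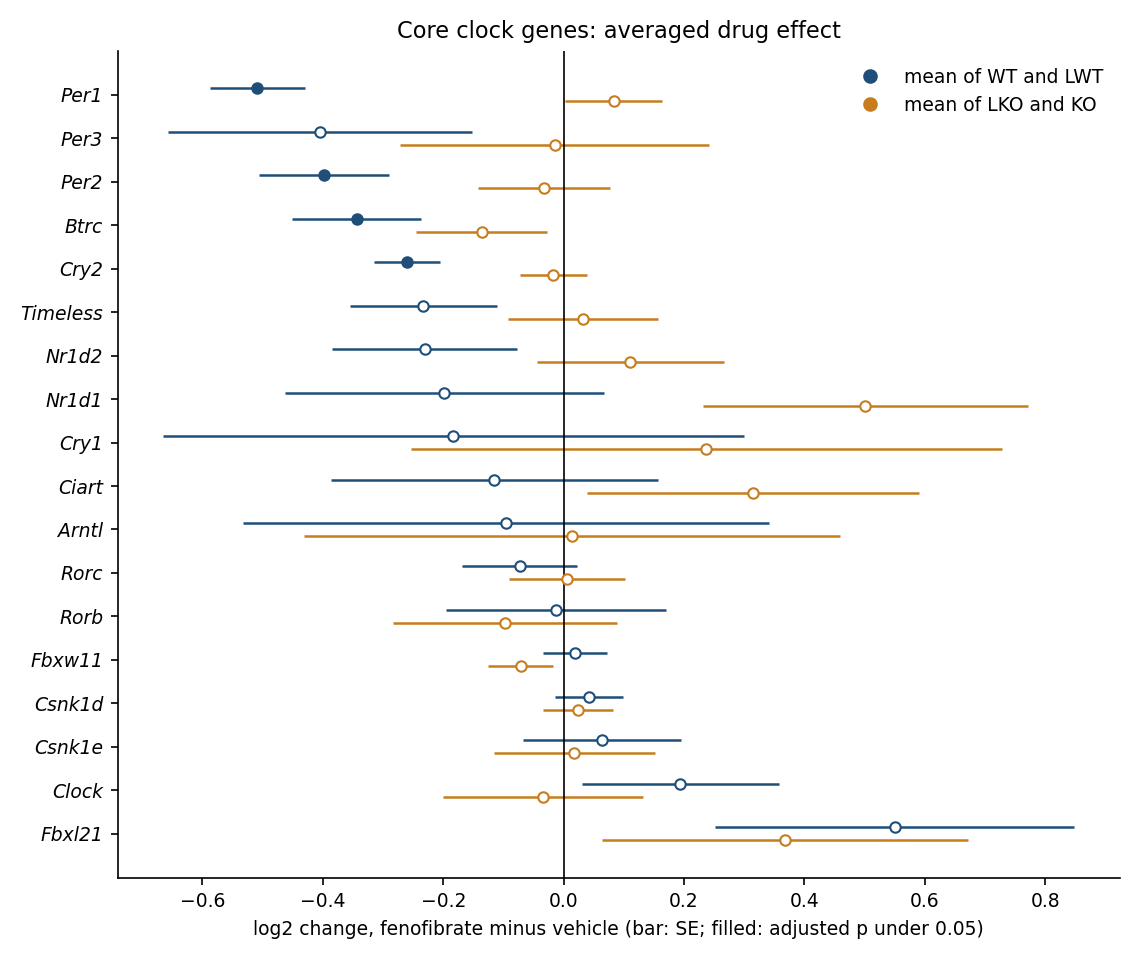
Change with fenofibrate (log2, with SE) of 18 of the core clock genes tested, averaged over WT and LWT in blue and over LKO and KO in orange; filled points have an adjusted p under 0.05. Of the 5 genes called in the WT and LWT average the plot holds 4, Per1, Per2, Btrc and Cry2, filled in blue and left of 0, and no orange point is filled.

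Genotype was read for the same list. On vehicle the REV-ERB genes Nr1d1 and Nr1d2, repressors at ROR elements, were lower in KO than WT (-1.88, adjusted p = 9.94e-04, and -1.89, adjusted p = 6.98e-07), and Nr1d1 was lower in LKO than LWT (-1.28, adjusted p = 0.0415). In all, 3 of 19 were lower and 1 higher in KO, against 30.1% of all genes called. The higher gene was Csnk1e, a PER kinase (1.05, adjusted p = 2.91e-04). Csnk1e also differed between the control lines, with WT minus LWT at -0.81 on vehicle (adjusted p = 0.0302) and -0.43 on fenofibrate (adjusted p = 0.415). How far differences between lines enter the KO minus WT value of Csnk1e was not tested. On fenofibrate 5 were higher in LKO than LWT and none lower, against 36.5% of all genes called, and 6 were higher and 3 lower in KO than WT, against 43.2%.

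Genes linked to PAR bZIP factors in liver split in direction. Of 11 tested, 3 rose and 4 fell with fenofibrate in the WT and LWT average, against 33.5% of all genes called, and none was called in the LKO and KO average. The drug-metabolism genes Cyp2b10 (2.89), Nr1i3 (the CAR receptor, 0.52) and Por (the P450 reductase, 0.34) rose, and Cyp7a1, the rate-limiting enzyme of bile acid synthesis (-1.52), Cyp2c50 (-0.79) and the carboxylesterase Ces2a (-0.46) fell. The list median was -0.04 beside 0.00 for all genes. Averaged over LKO and KO, Cyp2b10 was 2.21 higher on fenofibrate (SE 0.58, adjusted p = 0.215), and its difference between the averages was 0.68 (adjusted p = 0.611), neither past the threshold. On vehicle 2 were higher and 2 lower in KO than WT, against 30.1% of all genes called, among them Cyp2b10 at 5.13 and Ppara itself at -1.68.

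Of 11 genes linked to ROR or REV-ERB receptors, 3 rose and 2 fell in the WT and LWT average, against 33.5% of all genes called, and none was called in the knockouts' average. Insig2, a brake on sterol synthesis, rose by 1.59 and Cyp8b1, which sets the cholic acid share of bile, by 0.59. The vasopressin receptor gene Avpr1a changed by -1.50 and the oxysterol hydroxylase gene Cyp7b1 by -0.88. The list median was 0.19.

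Of 11 genes that glucocorticoids are known to induce, 6 fell and none rose in the WT and LWT average, against 33.5% of all genes called, with a median of -0.33. None was called in the LKO and KO average (median -0.05), and the difference between these averages called 1 higher and 1 lower, against 20.3%. The metallothioneins Mt2 and Mt1 changed by -1.04 and -0.79, and Tsc22d3, which encodes GILZ and was also the gene most like Usp2 among mice of a group, by -0.55 (adjusted p = 9.67e-04). On vehicle 5 of the 11 were higher and 1 lower in KO than WT, against 30.1% of all genes called. None was called in LKO against LWT, against 6.12%. Mt2 was 2.17 higher in KO (adjusted p = 0.00262), in the vehicle group that holds the mouse with high Kupffer markers described above. Per1 stands in both this list and the core clock list.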

How the data were processed

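Liver RNA of 34 mice was hybridised to one-colour Agilent mouse arrays. The deposited values used are processed signal intensities, which per the file headers were background-subtracted and detrended within each array by Agilent's scanner software (Feature Extraction, version 10.10.1.1). The authors' deposited value table holds log2 values of the same arrays, with equal column medians (7.63) and unstated steps, and served as an alternative. Levels are log2 intensity minus each array's 75th percentile. Control spots were dropped, outlier-flagged spots left out and spots of a probe averaged. A probe was kept if well above background on all arrays of at least 1 group, and each gene was read from its brightest kept probe (15976 genes). Groups were compared in limma 3.58.1 (R 4.3.3) in 1 fit over all 34 arrays without covariates, with Benjamini-Hochberg adjustment over all genes and a threshold of 0.05. Probe coordinates are those in the file headers' build; the number of arrays limits the precision.

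All members were named, with at most 3 called genes per direction of each list for the averaged drug effect, 2 for knockout comparisons and 2 most alike genes per member; some list genes are not reported here. Members and lists were chosen with earlier results of these data known. The pipeline was tested on simulated data. Same-numbered mice correlated above 0.1 in every pair of the 3 vehicle genotype comparisons only, which is where the numbers were treated as pairs. The labels do not say what a number marks, and some of these pairs shared a slide. Alternatives were normexp background, quantile normalization, the value table, no or stricter filter, averaged probes, outliers kept, trended variances, slide or replicate blocks, only the arrays compared, each mouse left out, and, after seeing the data, Arntl as a covariate.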

Additional observations from a re-analysis of the deposited data

Results flagged for a closer look

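The effect of fenofibrate on Usp2 differed between LWT and LKO by -1.04 on the log2 scale, between WT and KO by -1.11, and between the averaged controls and knockouts by -1.08, in each case tested as an interaction in limma. For Bhlhe40 the effect differed by -1.04 between WT and KO and by -0.90 between the averages. For Nfil3 it differed by -0.74 between the averages and for Hlf by -0.40. The knockout effect on Hlf differed between the whole-body and the liver line by -0.78 on vehicle and -0.78 on fenofibrate.

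Dbp in LKO replicate 4 on vehicle, at 4.58, lay apart from the other 3 mice of its group, between 5.37 and 5.53, with a gap of 0.83 of the group's range. It was the sample singled out among 49 sets of values examined (7 genes in each of the 7 groups of 4 or 5 mice), where chance would mark about 1 set in 20. In most groups Dbp fell from replicate 1 to replicate 4, and this low value lay in the same direction.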

How the results depend on the processing

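Precision was limited by 3 to 5 mice per group and, for Bhlhe41, by signal near background. Beside the changes given in the report, the number of members called moved as follows. For KO against WT on vehicle it was 2 with normexp, quantile normalization or trended variances, and 3 with the authors' value table or the slide block. For LWT minus LKO it was 2 with the slide block and 3 with only the arrays compared, and for WT minus KO it was 1 with only the arrays compared. Arntl as a covariate was chosen after seeing the data, for its likeness to Dbp, so the counts of that fit are a description only. They were 5 in LWT, 1 for LKO against LWT on vehicle and 5 on fenofibrate. For LWT minus LKO the count was 2 and for WT minus KO 5. Leaving out each mouse in turn gave 2 to 4 members in WT, 1 to 4 for KO against WT on vehicle, 1 to 2 for LWT minus LKO, 2 to 5 for WT minus KO, and 4 to 5 for the difference between the averages, which was 3 to 6 over the other alternatives. Over these fits the genes called in all moved too, with 2575 to 3896 in WT and 2210 to 3358 in LWT. They numbered 2050 to 5292 for KO against WT on vehicle. For LKO against LWT they numbered 698 to 1376 on vehicle and 5270 to 6383 on fenofibrate. For LWT minus LKO they numbered 795 to 1545, for WT minus KO 1026 to 2290, and for the difference between the averages 2679 to 3803. The cause was not tested.

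With the replicate number as a block, 3 members were called for KO against WT on vehicle. Where same-numbered mice did not all correlate above 0.1 over all genes, the replicate block turned the sign of 2 uncalled changes. These were Bhlhe40 in LKO (-0.002) and Nfil3 in KO (-0.073). The block also ended the call on the Hlf difference between averages given in the report. Beside these and the Tef and Nfil3 calls gained in KO on vehicle, the block changed no call on a member in the 16 comparisons.

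Other changes of sign concerned uncalled values. Rora in KO against WT on fenofibrate was -0.157 with the mean of its detected probes. For WT against LWT on vehicle, Nfil3 was 0.001 with quantile normalization, 0.155 with the slide block and 0.158 with Arntl as a covariate, and Dbp was -0.023 with that covariate. With the same covariate Bhlhe40 was -0.027 for WT minus LWT. Leaving out each mouse gave -0.027 to 0.175 for Usp2 and -0.014 to 0.151 for Bhlhe40 in LKO, -0.082 to 0.463 for Nfil3 in KO, -0.336 to 0.152 for Bhlhe40 in KO against WT on vehicle, -0.131 to 0.184 for Nfil3 in WT against LWT on vehicle, -0.006 to 0.147 for Bhlhe40 in WT minus LWT, and -0.18 to 0.092 for Nfil3 averaged over LKO and KO.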
